A study of Mus musculus with 21 samples.

Results

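Collagens are the structural proteins of the extracellular matrix, and their genes were described here library by library in picked spiral ganglion neurons (SGNs), hair cells (HCs) and glia of the mouse inner ear. A gene was taken as a collagen gene when its symbol was Col, a number, the letter a and a number, which gave 44 genes of the 52550 in the count table. The symbol alone chose the genes, and the later division of collagens into steady and single-library ones used the measured values themselves and is a description without a test.

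RNA-Seq libraries were made from 7 groups of C57BL/6 mouse cells with 3 replicates per group, 21 libraries in all. SGNs, the neurons that carry sound signals from the cochlea to the brain, came from 5 ages, namely E15.5 in the embryo and P1, P8, P14 and P30 after birth. Their mice carried ShhCre/+ and 1 copy of the Cre-dependent red reporter Rosa26-CAG-loxp-stop-loxp-tdTomato, also named Ai9, and received no tamoxifen. The reporter was thus switched on in cells in which the Shh gene had been active. HCs, the sensory cells, were taken at P12 from the cochlear and vestibular organs of Atoh1-CreER+ mice with the same reporter and tamoxifen at P0 and P1, and glia were taken at P8 from the SGN area of vGlut3-iCreER/+ mice with the same reporter and tamoxifen at P2 and P3. SGNs and glia were picked by hand under the microscope, with 69 to 195 cells per SGN library and 86 to 125 per glial library. HC libraries held 1200 cells each, and for them the labels give manual sorting and the study's methods give flow sorting. All 7 groups thus carried a Cre driver and the reporter. The driver, the age, the tissue, the way of sorting and, for HCs, the number of cells differed together between SGNs, HCs and glia. These cannot be told apart.

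Collagen chains wind into a triple helix, which is built and folded in the endoplasmic reticulum with the help of prolyl and lysyl hydroxylases and a dedicated chaperone, and is then secreted. Fibrillar collagens (types I, II, III, V, XI, XXIV and XXVII) form the fibers of bone, cartilage and connective tissue, type IV forms the sheet of basement membranes, type VI forms beaded filaments, and the fibril-associated collagens (FACITs) such as types IX, XII and XIV decorate fibers. In the inner ear, collagens II, IX and XI belong to the tectorial membrane and to cartilage, and Schwann cells lay a basement membrane that holds collagen IV around axons.

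The libraries held between 10368240 and 37287489 counts on genes. Expression was given in CPM, the count scaled to the library total, and levels in TPM, the same per gene length. A gene with no reads could still have had up to 3 counts, or 0.0805 to 0.289 CPM depending on the library. Whether both reads of a pair were counted is not stated, so a count may stand for fewer molecules than its number. SGN marker genes (8 genes with Nefm) summed to 943 to 6540 TPM in SGNs, 364 to 386 in HCs and 31.5 to 276 in glia, and hair cell markers (5 genes with Otof) summed to 2387 to 2810 TPM in HCs and at most 190 elsewhere. Schwann cell and glia markers (8 genes with Sox10 and Foxd3) summed to 5700 to 8091 TPM in glia and at most 1255 in SGNs. The labels were thus met by the markers of each group. In each SGN age the library with the highest cartilage, bone and fibroblast markers was marked out, 5 in all. Results that rest on them are given with and without them. As they were picked after the data were seen, calls gained without them are descriptions only.

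Collagen genes often lie in pairs in the genome, and 8 neighboring pairs of this kind were found in the annotation on GRCm38. Of these, 3 were arranged head to head. The start of Col4a1 (chromosome 8, 11198423 to 11312826, minus strand) overlapped that of Col4a2 (chromosome 8, 11312805 to 11449287, plus strand) by 22 bases, Col4a4 and Col4a3 on chromosome 1 started 71 bases apart, and Col4a6 and Col4a5 on the X chromosome 1308 bases apart. The sequences of the 2 shorter start regions are shown because the chains of each pair were compared below, and the stretches before the starts of Col19a1, Col24a1, Col23a1 and Col28a1 because Col19a1 and Col24a1 rose with age in SGNs and Col23a1 and Col28a1 were higher in glia than in SGNs. All were taken from the RefSeq promoter table on GRCm38, which held 35 of the 44 genes, and are written 5′ to 3′ on the strand named, with matches to a GC box (GGGCGG) or a Sox core (ACAAAG) in capitals, except that the first is in capitals throughout as the stretch that both genes share.
Col4a1 and Col4a2, shared 22 bases, chr8:11312805-11312826, plus strand: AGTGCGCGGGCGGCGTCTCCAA
Col4a4 and Col4a3, 71 bases between the starts, chr1:82586850-82586920, minus strand: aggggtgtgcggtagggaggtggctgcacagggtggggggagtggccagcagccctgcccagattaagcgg
Col19a1, 215 bases before the start, chr1:24587473-24587687, minus strand: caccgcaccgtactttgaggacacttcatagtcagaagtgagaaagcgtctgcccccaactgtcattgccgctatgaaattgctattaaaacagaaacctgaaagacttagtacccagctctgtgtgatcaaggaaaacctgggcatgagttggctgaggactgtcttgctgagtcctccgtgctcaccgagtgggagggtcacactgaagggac
Col24a1, 250 bases before the start, chr3:145292222-145292471, plus strand: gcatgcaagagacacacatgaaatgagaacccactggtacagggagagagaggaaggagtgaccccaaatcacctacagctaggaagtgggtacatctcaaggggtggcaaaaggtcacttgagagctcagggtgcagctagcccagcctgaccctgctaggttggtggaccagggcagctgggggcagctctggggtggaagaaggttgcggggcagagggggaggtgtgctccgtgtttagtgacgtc
Col23a1, 250 bases before the start, chr11:51289670-51289919, plus strand: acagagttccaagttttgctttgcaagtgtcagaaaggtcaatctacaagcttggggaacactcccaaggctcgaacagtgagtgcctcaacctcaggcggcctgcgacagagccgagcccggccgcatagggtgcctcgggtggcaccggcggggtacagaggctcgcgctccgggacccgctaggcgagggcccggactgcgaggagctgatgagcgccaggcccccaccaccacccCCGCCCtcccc
Col28a1, 250 bases before the start, chr6:8192618-8192867, minus strand: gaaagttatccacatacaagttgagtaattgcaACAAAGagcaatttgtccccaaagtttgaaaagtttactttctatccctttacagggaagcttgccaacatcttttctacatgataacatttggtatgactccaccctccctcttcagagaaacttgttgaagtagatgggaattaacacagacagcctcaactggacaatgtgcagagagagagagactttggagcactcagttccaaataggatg

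In all 4 motifs were searched, each on both strands. They were the TATA box, searched as TATAAA, and the CCAAT box by those letters, together with the GC box bound by Sp factors, searched as GGGCGG, and the core of Sox factor sites, searched as ACAAAG. The shared start of Col4a1 and Col4a2 held 1 match to GGGCGG. Of all 32851 promoters 7.19% held a match in the 22 bases just before the start, whereas the shared stretch lies within both genes. The Col23a1 stretch held 1 match to GGGCGG on the minus strand, as did 32.7% of all promoters in 250 bases, and the Col28a1 stretch held 1 match to ACAAAG, as did 16.5%. The stretches of Col19a1, Col24a1 and the Col4a4 and Col4a3 pair held none of the 4 motifs. Of the 35 collagen genes with a promoter entry, 5 held the TATA box within 250 bases before a start, where 12.4% of all promoters did. The CCAAT box was held by 13 genes (33.8% of all promoters), the GC box by 21 (32.7%) and the Sox core by 4 (16.5%). These matches describe letters and not binding.

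Glia held the most collagen RNA, and the SGN libraries of any age differed widely from each other. The 44 collagens summed to 746, 1163 and 1155 TPM in the 3 glial libraries and to 276, 271 and 303 in the HC libraries. SGN sums were 95.7, 943 and 114 TPM at E15.5, 697, 86.0 and 107 at P1, 448, 157 and 77.8 at P8, 188, 31.8 and 58.5 at P14, and 70.3, 28.6 and 7.64 at P30. The lowest glial library lay below 1 E15.5 SGN library, and above all other SGN and HC libraries. In bulk samples fewer cells of a type and less RNA per cell cannot be told apart.

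Each gene was put into 1 of 4 classes in each group, which gave 308 cases. A gene was steady where all 3 libraries exceeded 1 CPM and the highest was at most 4 times the lowest, single-library where the highest exceeded 1 CPM and was at least 4 times the second, not detected where no library exceeded 1 CPM, and uneven otherwise. Steady cases numbered 90, uneven cases 69, single-library cases 99 and not detected cases 50. The share of all genes in each class is not given here, so these counts do not set collagens apart from other genes. HCs had 28 steady collagens and 2 single-library ones, and glia 18 and 10. SGNs had 7 steady and 19 single-library collagens at E15.5, 10 and 22 at P1, 12 and 17 at P8, 10 and 12 at P14, and 5 and 17 at P30. With these limits SGNs had more single-library than steady collagens at each of the 5 ages, but the order depended on the fold. At a fold of 8 in both limits, steady and single-library collagens numbered 19 and 11 at P8, 17 and 8 at P14 and 9 and 9 at P30, against 10 and 11 at E15.5 and 12 and 14 at P1.

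Single-library collagens in SGNs fell almost entirely in 1 library per age. These were E15.5 replicate 2 and replicate 1 at P1, P8, P14 and P30, which were picked out after the data were seen, as the library of each age with the highest sum of the cartilage and bone list (8 genes) and the fibroblast and otic mesenchyme list (11 genes). Their marker sums were 301 TPM at E15.5 (next 113), 1395 at P1 (next 40.1), 550 at P8 (next 46.9), 320 at P14 (next 9.87) and 95.9 at P30 (next 8.12). The rule yields 1 library per age whatever its level, and that of P30 lay below the next library of E15.5. The same 5 libraries held 85 of the 87 single-library cases of the SGN ages and had the highest collagen sum of their age in 5 of 5 ages, 2.46 to 8.26 times the next library. Collagen sums reached 70.3 to 943 TPM in these 5 marker-rich libraries and 7.64 to 157 TPM in the other 10 SGN libraries, so that the ranges overlapped across ages. Each of the 5 libraries also had the most counts of its age. At P1, P8, P14 and P30 the marker-rich library also held the most cells, at 195, 140, 127 and 114. The others of these ages held at most 150, 108, 103 and 90. At E15.5 it held 90 cells, against 69 and 92. The part of depth and cell number was not tested. The share of all genes that peaked in these libraries is not given here.

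The markers that were high differed between the 5 libraries. Acan and Matn1, which encode cartilage matrix proteins, stood at 55.7 and 62.6 TPM in E15.5 replicate 2, and Fn1, which encodes fibronectin, at 89.0. Otor, a gene of cartilage and otic fibrocytes, reached 1192 TPM in P1 replicate 1 against 0.135 and 0.449 in the other P1 libraries. The bone genes Ibsp and Bglap stood at 138 and 31.0 TPM in P8 replicate 1 and at 61.8 and 65.3 in P14 replicate 1, where Matn1 was at 0. All 11 fibroblast genes exceeded 1 CPM in 4 of these libraries, and also in the other E15.5 libraries, and 10 did in P14 replicate 1, and 6 to 8 of the 8 cartilage and bone genes did. In the other 10 SGN libraries the cartilage and bone list summed to at most 22.2 TPM, Matn1 was at 0 in 9 of them, and the fibroblast list to at most 97.2 TPM. Other lists were high in some of the same libraries, but not in all. Endothelial markers summed to 85.7 TPM in P1 replicate 1 against 0.224 and 0.549 in the other P1 libraries, and to 13.1 in P8 replicate 1. Supporting cell markers summed to 138 TPM in P8 replicate 1, against 0.635 and 0.501 in the other P8 libraries, and to 47.0 in P14 replicate 1. In E15.5 replicate 2, supporting cell markers summed to 7.83 TPM, below the 10.9 and 14.4 of the other E15.5 libraries. Red blood cell markers summed to 0.696 TPM there and to 182 in E15.5 replicate 1. At P8 pericyte and smooth muscle markers were highest in replicate 2, at 9.37 TPM against 5.80 in replicate 1. The part of these lists in the collagen levels was not tested.

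**Figure D1:**
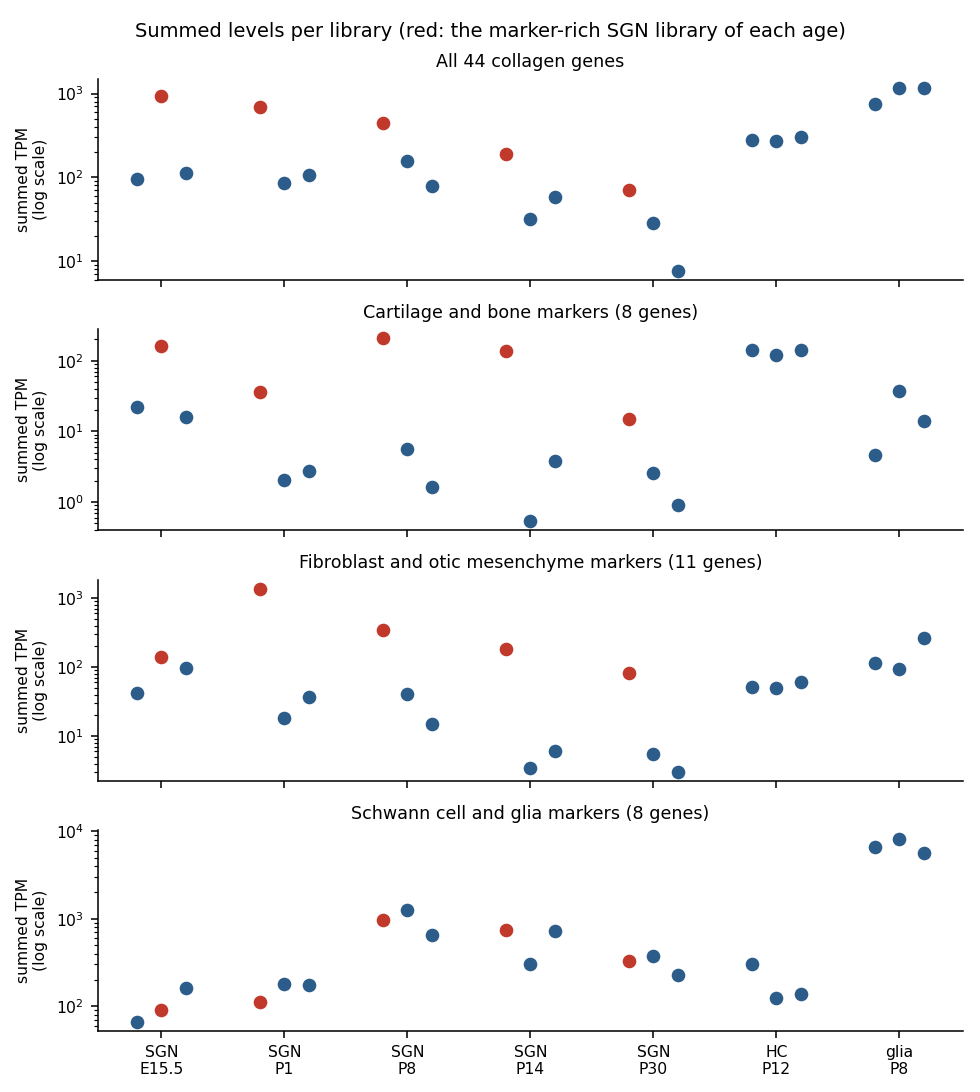
Summed TPM (log axis) of the 44 collagens and of 3 marker lists in each library, with points for libraries by group and red points for the marker-rich library of each SGN age. The red point is the highest of its age for the collagens, at 70.3 to 943 TPM, and the Schwann cell and glia list is highest in glia and, among SGNs, at P8.

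Col2a1, which encodes the chain of collagen II of cartilage and the tectorial membrane, was the plainest of the single-library genes and was of that class at all 5 SGN ages. It stood at 6.98, 515 and 19.6 TPM at E15.5, 205, 0.384 and 0.355 at P1, 113, 3.19 and 1.34 at P8, 25.8, 0.136 and 4.05 at P14, and 15.8, 0.12 and 0 at P30. One library per age was high and the other 10 SGN libraries reached at most 19.6 TPM. HCs held 19.0, 20.7 and 16.9 TPM, and glia 6.37, 138 and 234.

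Several cartilage collagens of types IX, X and XI were highest in the same libraries at E15.5. Col9a1, a chain of the FACIT collagen IX, stood at 0.225, 36.8 and 0.95 TPM at E15.5, 41.8, 0.0252 and 0.084 at P1 and 20.7, 1.02 and 0 at P8. At P14 and P30 its highest library reached 0.622 and 1.57 TPM. Col9a3, another chain of collagen IX, was found in every SGN library but was single-library in 4 ages, at 16.9, 110 and 8.24 TPM at E15.5, 111, 19.1 and 18.7 at P1, and 43.8, 11.8 and 6.35 at P8. Col9a2, the other chain, was highest outside the marker-rich library at P14 and P30, with 0.989, 1.05 and 3.93 TPM at P14 and 0.988, 1.98 and 0.215 at P30. The Col9a3 gene overlaps Tcfl5 on the opposite strand, and the strand setting of the counting is not stated, so reads of both cannot be told apart. Col11a1 and Col11a2, the chains of the fibrillar collagen XI, reached 91.9 and 29.8 TPM in E15.5 replicate 2, where the other E15.5 libraries held 8.94 and 12.2 TPM of Col11a1 and 2.10 and 5.87 of Col11a2. Col10a1, the collagen of hypertrophic cartilage, stood at 0.33, 43.4 and 1.01 TPM at E15.5, and it overlaps Nt5dc1 on the opposite strand.

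The chains of collagen I of bone and skin behaved in the same way in SGNs. Col1a2 reached 40.8 TPM in P1 replicate 1 against 1.63 and 1.59 in the others, and Col1a1 26.9 TPM in that library against 0.516 and 0.292. At E15.5 the highest library for Col1a1 was replicate 1 with 14.1 TPM, not the marker-rich one, which held 2.58. Of the network collagens, Col8a1 reached 3.20, 3.42 and 9.37 TPM in the marker-rich libraries of P1, P8 and P14 and at most 0.152 in the other libraries of these ages. Over all classes, 36 of the 44 collagens were single-library in at least 1 SGN age, 1 of them in 5 ages, 8 in 4 and 7 in 3, and 15 were highest in the marker-rich library of all 5 ages.

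**Figure D2:**
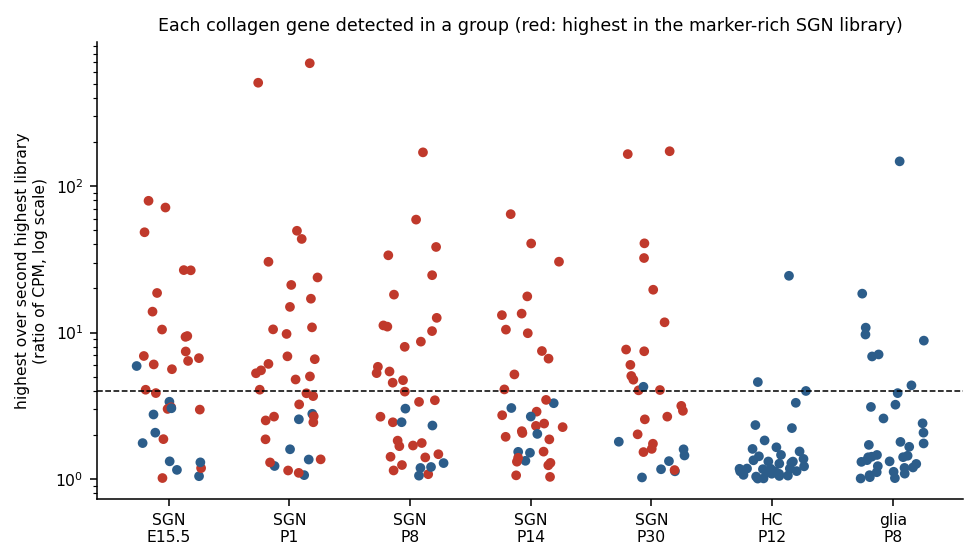
Ratio of the highest to the second highest library (CPM, log axis) for each detected collagen in each group, with a dashed line at 4 and red points where the highest library is the marker-rich one. Genes whose second library was at 0 cannot be drawn. Nearly all SGN points above the line are red, 85 of 87 single-library cases when genes at 0 are included, and 2 HC genes lie above it.

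A smaller set of collagens was carried evenly by the SGN libraries. Col23a1, a transmembrane collagen, was steady in 4 of 5 ages, and Col7a1, Col19a1, Col24a1, Col26a1 and Col27a1 in 3. By mean TPM the 3 leading steady genes were Col26a1, Col1a2 and Col23a1 at E15.5, Col26a1, Col23a1 and Col27a1 at P1, Col14a1, Col15a1 and Col4a2 at P8, Col9a3, Col4a1 and Col11a2 at P14, and Col16a1, Col27a1 and Col19a1 at P30. The genes that led thus differed between ages. Col27a1, a fibrillar collagen first known from cartilage, stood at 5.53, 2.09 and 2.58 TPM at P1, 3.02, 1.25 and 2.22 at P14, and 1.35, 3.14 and 1.13 at P30. It was single-library at E15.5, with 1.04, 9.19 and 1.79 TPM, and at P8, with 5.60, 1.32 and 0.943. Col16a1, a FACIT collagen, held 1.53, 3.29 and 1.48 TPM at P30.

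The question of the age series is how the transcriptome of SGNs changes as they mature. Between neighboring ages few collagens changed, and those that did lay between P1 and P8. Of the 44 collagens 33 passed the filter of the SGN comparisons, which asked for more than 1 CPM in all replicates of at least 1 age, and the 11 left out were Col4a4, Col4a6, Col5a3, Col6a4, Col6a5, Col6a6, Col8a1, Col8a2, Col9a1, Col13a1 and Col22a1. A gene was called at an adjusted p under 0.05 and a fold over 2 (limma-voom, Benjamini-Hochberg over all 15113 genes). The replicates of a group came from separate pools of cells, and nothing states whether they shared animals.

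From P1 to P8, 4 of the 33 collagens were called, 2 up and 2 down, where 7.44% of all genes were called (4.29% up and 3.15% down). Col19a1, a FACIT collagen described in neurons of the brain, stood at 0.0733, 0.149 and 0.124 TPM at P1 and at 0.652, 3.22 and 1.41 at P8. All P8 libraries lay above all P1 libraries, and the rise was 4.05 on the log2 scale (SE 0.99, adjusted p = 0.0143). Col14a1, a FACIT collagen of tendon and skin, stood at 11.6, 4.15 and 0.789 TPM at P1 and at 20.7, 24.7 and 12.7 at P8, a rise of 2.68 (SE 0.69, adjusted p = 0.0187) with no overlap. Without P1 replicate 3 neither of these passed the test, and the count fell to 2, and Col19a1 was also lost without P1 replicate 1 and Col14a1 without P1 replicate 2. Col14a1 also did not pass with edgeR's quasi-likelihood test or with DESeq2.

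Col26a1 and Col23a1 fell from P1 to P8. Col26a1, which encodes an EMI domain collagen, stood at 11.4, 4.75 and 11.6 TPM at P1 and 0.892, 1.90 and 0.578 at P8, with no overlap, and fell by 2.70 on the log2 scale (SE 0.49, adjusted p = 0.00205). Col23a1 stood at 5.66, 4.15 and 4.73 TPM at P1 and 1.16, 0.93 and 0.528 at P8, again with no overlap, and fell by 2.12 (SE 0.58, adjusted p = 0.0247). The Col23a1 call was lost without P1 replicate 1, without P8 replicate 2 or without P8 replicate 3, and neither gene passed edgeR's quasi-likelihood test, which called 1 collagen in this step. Col26a1 was also lost with DESeq2. With the 5 marker-rich libraries left out, 7 of 33 collagens were called from P1 to P8, where 4.68% of all genes were. Col23a1 was no longer called, and Col1a2, Col4a1, Col5a2 and Col15a1 were called as higher, Col4a1 by 2.53 (adjusted p = 0.0013) and Col15a1 by 3.79 (adjusted p = 0.0135).

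Other matrix genes and glial markers moved in the same step, in which 4.29% of all genes were called as higher and 3.15% as lower. Of 16 other basement membrane genes 15 were tested, and 4 of these rose from P1 to P8. Lama2, a laminin chain of Schwann cell and muscle basement membranes, rose by 3.10 on the log2 scale (adjusted p = 0.000637), Nid1, which links laminin to collagen IV, by 2.35 (adjusted p = 0.0332), Lamc1 by 2.32 (adjusted p = 0.000601) and Lamb1 by 1.65 (adjusted p = 0.0317). Of the 8 Schwann cell and glia markers 7 were tested and 6 rose, and their sum was 112 to 177 TPM at P1 and 643 to 1255 at P8, without overlap. The median of the list was 1.54 to 3.80 TPM at P1 and 14.1 to 27.6 at P8, so a few genes made up most of the sum. Of this list S100b was higher in P8 SGNs than in P8 glia, by 2.76 on the log2 scale (adjusted p = 0.000318), and all others were lower. The part of these markers in the Col14a1 rise was not tested. Col14a1 stood at 23.8, 7.14 and 17.0 TPM in glia. Col19a1 stood at 0.349, 0 and 0 TPM in glia, below all P8 SGN libraries.

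From P8 to P14 and from P14 to P30 no collagen was called, where 0.536% and 0.0596% of all genes were. Without the marker-rich libraries the P14 to P30 step again had 0 collagens, and 0.0199% of all genes. At an unadjusted p under 0.05 there were 6 collagens in the first of these steps and 0 in the second, and edgeR and DESeq2 called 0 in both. The median log2 fold change of the 33 collagens was -1.40 from P8 to P14 and -1.33 from P14 to P30, and that of all genes -0.02 and -0.01. Col14a1 stood at 7.30, 2.43 and 0.516 TPM at P14, below all P8 libraries, with a log2 fold change of -3.09 (SE 0.85, adjusted p = 0.102), and the 2 laminin genes Lama2 and Lamc1 fell by 2.27 (adjusted p = 0.0283) and 1.90 (adjusted p = 0.0251). Without the marker-rich libraries 1 collagen was called from P8 to P14, Col4a1 with a log2 fold change of -2.03 (adjusted p = 0.0365), where 0.351% of all genes were called.

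From E15.5 to P1 no collagen was called either, although 8.26% of all genes were. At E15.5 to P1, 2 collagens passed an unadjusted p of 0.05, edgeR called 0 and DESeq2 called 1, which was Col4a3. Col4a2, a chain of the common basement membrane collagen, stood at 0.375, 3.91 and 3.85 TPM at E15.5 and 44.3, 10.3 and 7.41 at P1, with no overlap and a log2 fold change of 2.50 (SE 1.05, adjusted p = 0.13). Without the marker-rich libraries 2 collagens were called, Col4a3 up by 6.70 (adjusted p = 0.0472) and Col2a1 with a log2 fold change of -5.29 (adjusted p = 0.0132), and 9.43% of all genes. Col4a3 had 0, 16 and 3 counts at E15.5, so its fitted value rests on few reads.

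Over the whole age range, from E15.5 to P30, 8 of 33 collagens were called, 2 up and 6 down, where 34.6% of all genes were called (18.4% up and 16.2% down). Col19a1 and Col24a1 rose. Col19a1 had 0, 2 and 4 counts at E15.5 and 193, 123 and 86 at P30, where it stood at 1.10, 1.61 and 0.593 TPM, and its rise was 5.86 on the log2 scale (SE 1.44, adjusted p = 0.00407), a fitted value that depends on the low counts at E15.5. The Col19a1 call was lost with quality weights. Col24a1, a fibrillar collagen known from forming bone and the brain, stood at 0.244, 0.104 and 0.367 TPM at E15.5 and 3.56, 2.79 and 0.461 at P30. Its groups did not overlap, but P30 replicate 3 lay close to E15.5, and the rise of 3.26 (SE 1.13, adjusted p = 0.0291) was lost without P30 replicate 1, without any 1 of the 3 E15.5 libraries, and without the marker-rich libraries. It was also lost with library-size scaling and with quality weights.

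Col26a1 and Col23a1 fell over the same range. Col26a1 stood at 9.25, 4.93 and 9.13 TPM at E15.5 and at 0.115, 0.143 and 0.128 at P30, which fell by 5.67 on the log2 scale (SE 0.92, adjusted p = 0.000147). Between these ages it was at 4.75 to 11.6 TPM at P1, 0.578 to 1.90 at P8, and 1.99, 0.021 and 0.0316 at P14. Col23a1 fell by 2.66 (SE 0.64, adjusted p = 0.00373), from 5.68, 2.15 and 8.41 TPM at E15.5 to 1.11, 0.91 and 0.232 at P30. Both calls held under each of the 15 alternatives, and neither gene was highest in the marker-rich library of E15.5.

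The other 4 genes that fell from E15.5 to P30 were Col25a1, Col5a1, Col11a1 and Col9a2. Col25a1, a transmembrane collagen needed for motor axons to enter muscle, stood at 0.336, 1.23 and 3.97 TPM at E15.5 and 0.103, 0 and 0.00733 at P30, and fell by 6.12 on the log2 scale (SE 1.79, adjusted p = 0.0118). Col5a1, a chain that nucleates collagen fibers, stood at 1.85, 2.96 and 5.36 TPM at E15.5 and 0.517, 0.0848 and 0 at P30, and fell by 5.60 (SE 1.66, adjusted p = 0.0127). Both held under each of the 15 alternatives, and both were absent or near 0 in P30 replicate 3. Col25a1 passed the filter through E15.5 alone, the age where it was high, so its test was not independent of the filter. A fit with no filter, which kept the call, is among the alternatives. Col11a1 fell by 4.55 (SE 1.76, adjusted p = 0.0475) and Col9a2, a chain of collagen IX, by 3.91 (SE 1.49, adjusted p = 0.0449). Both of these were lost without E15.5 replicate 2, the marker-rich library, and without any 1 of the 3 P30 libraries. Without P30 replicate 1 the count fell to 5.

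With the 5 marker-rich libraries left out, 16 of 33 collagens were called from E15.5 to P30, where 32.4% of all genes were. These 5 libraries were picked after the data were seen and had the highest collagen sum of each age. Leaving them out thus removes high values of these same genes, and the calls gained only describe the libraries kept. In this fit 9 were called that had not been called before, 8 down and Col16a1 up by 3.79 on the log2 scale (adjusted p = 0.0113). Col2a1 had the largest log2 fold change of these, -8.69 (adjusted p = 0.00672), from 6.98 and 19.6 TPM to 0.12 and 0. With all libraries Col2a1 was at -7.11 (SE 5.89, adjusted p = 0.347). Col9a3 was at -2.91 (adjusted p = 0.0155), Col1a2 at -4.65 (adjusted p = 0.00939) and Col12a1, a FACIT collagen of dense connective tissue, at -4.68 (adjusted p = 0.0116).

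**Figure D3:**
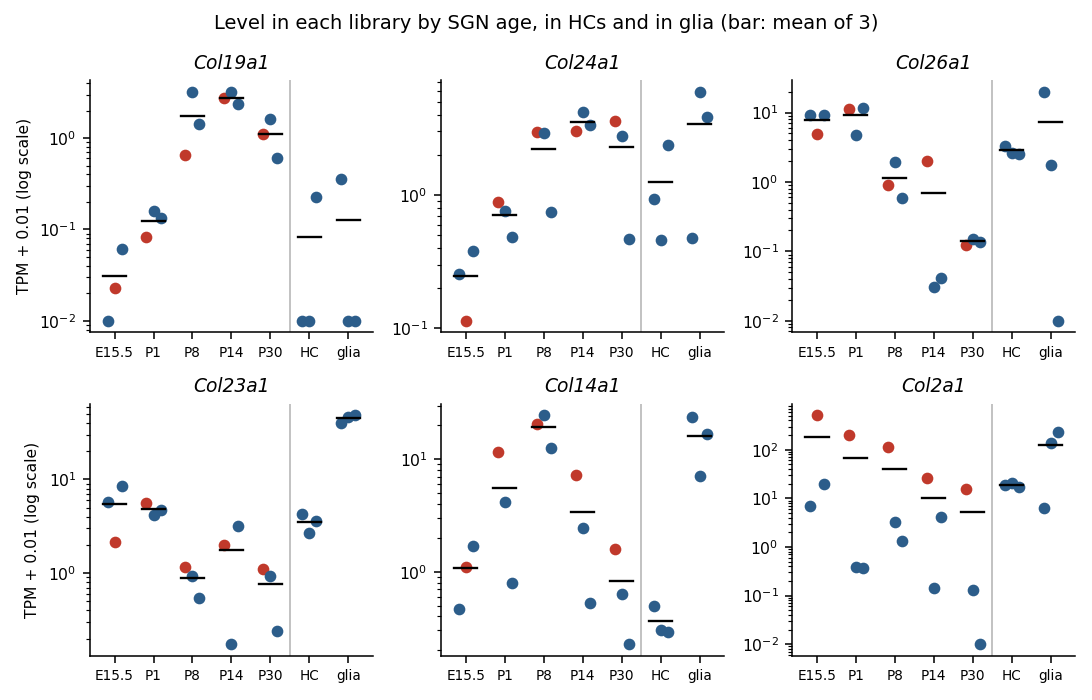
TPM + 0.01 (log axis) of 6 collagens in the 15 SGN libraries by age, with points for libraries, red points for the marker-rich library of each age and bars at the mean. Col19a1 is higher from P8 on than before, Col26a1 lies above 4 TPM at E15.5 and P1 and below 2 TPM later, and in the Col2a1 panel the red point is alone at the top of each age.

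Of 17 genes of collagen synthesis, folding and secretion, 5 fell and 1 rose from E15.5 to P30, a share of called genes close to the 34.6% of all genes. Serpinh1, the collagen chaperone HSP47, fell by 4.64 on the log2 scale (adjusted p = 0.0351), P3h4 by 3.48 (adjusted p = 0.00462), the lysyl hydroxylase Plod2 by 3.32 (adjusted p = 0.00104) and the prolyl hydroxylase P3h1 by 2.89 (adjusted p = 0.022). Of 9 processing and cross-linking genes tested 1 rose and 2 fell, and the tolloid protease Tll1 rose by 5.99 (adjusted p = 0.00491) while Bmp1, the procollagen protease of the same family, fell by 2.76 (adjusted p = 0.000913). Of 10 receptors 2 fell, the integrin chain Itga11 by 4.35 (adjusted p = 0.0245) and Adgrg1, a receptor for collagen III, by 2.96 (adjusted p = 0.00174). Mmp14, a membrane collagenase, fell by 5.20 (adjusted p = 0.00184). The synthesis genes as a list had a median log2 fold change of -0.88, and all genes -0.01.

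Glia held more of 21 collagens than neurons did. Comparing SGNs with glia and HCs asks which genes are particular to neurons among these inner ear cells. The mean of the 5 SGN ages was set against P8 glia in a fit of all 21 libraries, in which 39 of the 44 collagens passed the filter and Col4a6, Col6a4, Col6a5, Col8a2 and Col13a1 did not. A gene was called at an adjusted p under 0.01 and a fold over 4. In SGNs 21 of 39 collagens were lower than in glia and none was higher, where 24.7% of all 17531 genes were called and 10.4% as lower. The median log2 fold change of the 39 was -3.20, and of all genes 0.22.

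The fiber-forming collagens III and V and the Schwann cell collagen XXVIII had the largest differences. Col3a1, the chain of collagen III, stood at 89.9, 119 and 85.7 TPM in glia and at 0 to 15.9 in the 15 SGN libraries, a log2 fold change of -7.91 (SE 0.77, adjusted p = 3.98e-08). Col5a1 stood at 79.8, 104 and 92.4 TPM in glia and at 0 to 17.2 in SGNs, at -6.81 (SE 0.39, adjusted p = 1.25e-11). Col28a1, a collagen of Schwann cells in peripheral nerve, stood at 21.4, 14.5 and 8.65 TPM in glia and at most at 1.82 in SGNs, at -6.64 (SE 0.52, adjusted p = 1.44e-09). In none of these genes did the groups overlap. Col5a3, at 13.2, 7.39 and 4.47 TPM in glia, was at -6.58 (SE 0.55, adjusted p = 3.81e-09), and Col5a2, at 27.9, 33.1 and 35.1, at -6.17 (SE 0.46, adjusted p = 8.65e-10). Col5a3 passed the filter through glia alone, the group where it was high. Its calls here, at P8 and in HCs against glia thus only describe it.

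Col23a1 was the most even of the glial collagens. It stood at 40.5, 46.2 and 48.6 TPM in glia, at most at 8.41 in SGNs and at 4.23, 2.64 and 3.60 in HCs, and its log2 fold change in SGNs against glia was -5.10 (SE 0.25, adjusted p = 1.06e-12). Col1a2 was the highest collagen of glia by mean, at 138, 195 and 182 TPM, and was at -5.56 (SE 0.51, adjusted p = 1.58e-08). Of the type IV chains, Col4a1 stood at 62.2, 84.3 and 39.9 TPM and Col4a2 at 51.7, 74.5 and 76.6 in glia, against ranges of 0.146 to 29.0 and 0.115 to 44.3 in SGNs. Their log2 fold changes were -4.53 (SE 0.42, adjusted p = 2.1e-08) and -4.24 (SE 0.44, adjusted p = 9.19e-08). The SGN library closest to glia was P1 replicate 1 for both. Of the 21 calls 17 held under every alternative that gave an adjusted p, and those of Col1a1, Col6a1, Col6a2 and Col8a1 did not. DESeq2 gave no adjusted p for Col1a2. The Col6a2 call was lost without glia replicate 1 or without glia replicate 2.

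Some collagens were uneven within glia. The 10 single-library collagens of glia were spread over its 3 libraries, 4 in replicate 1, 4 in replicate 2 and 2 in replicate 3. Col1a1 stood at 13.5, 56.1 and 9.20 TPM, Col9a1 at 0.146, 6.03 and 39.2, and Col26a1 at 19.9, 1.76 and 0. The fibroblast list summed to 115, 94.1 and 265 TPM in these libraries and the cartilage and bone list to 4.59, 37.3 and 13.8, and Matn1 was at 0 in all 3. SGN markers summed to 276, 61.8 and 31.5 TPM, highest in replicate 1, where Col26a1 and Col19a1 were also highest. The part of these markers was not tested.

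At P8, where the neurons and glia had the same age, 15 of 39 collagens were called, 14 lower in SGNs and 1 higher, where 20.9% of all genes were called (7.53% lower and 13.4% higher). Col19a1 was the 1 that was higher, by 5.29 on the log2 scale (SE 1.18, adjusted p = 0.00117), and was lost without glia replicate 2 or without glia replicate 3. It was also lost with edgeR's quasi-likelihood test, with DESeq2 and with quality weights. Col3a1 (log2 fold change -6.27, adjusted p = 6.98e-05), Col6a3 (-6.13, adjusted p = 0.00138), Col23a1 (-6.05, adjusted p = 2.44e-08), Col5a1 (-5.58, adjusted p = 9.06e-08) and Col5a3 (-4.73, adjusted p = 0.000117) had the largest differences. Of these, Col5a3 entered the test through glia alone. Col6a3, a chain of collagen VI, was lost without P8 replicate 2 of the SGNs. The calls of Col5a1, Col18a1 and Col23a1 held under every alternative, and edgeR's quasi-likelihood test called 4 collagens in place of 15. Without the marker-rich libraries 20 were called, where 19.5% of all genes were.

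Col14a1 and Col15a1 were as high in the P8 neurons as in some glia. Col15a1, which encodes a collagen at the outer face of basement membranes, stood at 21.4, 24.6 and 11.6 TPM in P8 SGNs and 25.6, 58.7 and 16.8 in glia, with a log2 fold change of -0.99 (SE 0.57, adjusted p = 0.168). Col14a1 stood at 20.7, 24.7 and 12.7 TPM in P8 SGNs and 23.8, 7.14 and 17.0 in glia, at -0.01 (SE 0.50, adjusted p = 0.983). The groups overlapped for both genes, and a test that misses the threshold does not show equal levels. In the mean of the 5 ages both were lower than in glia, at -3.96 (adjusted p = 2.58e-05) and -2.92 (adjusted p = 0.000113).

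Of the partner genes of collagen, more were called as lower than as higher in SGNs against glia in each of 4 lists, where 10.4% of all genes were lower and 14.3% higher. Of 17 synthesis genes 5 were lower than in glia and 2 higher, of 11 processing genes tested 6 were lower and 1 higher, of 10 receptors 4 were lower, and of 15 other basement membrane genes 9 were lower and 1 higher. Serpinh1 stood at 116, 114 and 173 TPM in glia and 0.0972 to 63.5 in SGNs, at -4.38 (adjusted p = 2.25e-07). Hspg2, which encodes perlecan, was at -6.31 (adjusted p = 6.73e-11), Lama2 at -6.09 (adjusted p = 2.97e-13), the integrin chain Itga2 at -6.01 (adjusted p = 4.55e-09) and the gelatinase Mmp2 at -5.13 (adjusted p = 1.49e-06). The prolyl hydroxylase P4ha2 was higher in SGNs by 3.59 (adjusted p = 0.00587).

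HCs had the most even collagens of all groups, and their leading genes were those of cartilage and bone. Each HC library pooled 1200 cells, against 69 to 195 in SGN libraries and 86 to 125 in glial libraries. The part of cell number in this evenness was not tested. Col1a1 stood at 49.1, 55.5 and 60.9 TPM, Col1a2 at 29.3, 24.3 and 26.3, Col9a2 at 23.5, 22.4 and 29.0, Col11a1 at 25.7, 21.9 and 23.9, Col11a2 at 17.3 to 21.7, and Col2a1 at 19.0, 20.7 and 16.9. Each of these varied by less than 1.5 times within the group. Supporting cell markers (5 genes with Otog and Tecta, which encode tectorial and otolithic membrane proteins) summed to 706 to 797 TPM in the HC libraries and at most 138 in any other, with Otog at 514, 561 and 598. The bone marker Ibsp stood at 45.2, 31.0 and 45.1 TPM and Bglap at up to 21.2, while Acan and Matn1, the cartilage matrix genes, were at 0 in all 3 HC libraries. Their part in the HC collagens was not tested.

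Against HCs, 7 of 39 collagens were called in SGNs, 1 higher and 6 lower, where 26.8% of all genes were called (10.5% higher and 16.2% lower). Col19a1 was higher, by 4.80 on the log2 scale (SE 1.15, adjusted p = 0.00143). It had 0, 0 and 10 counts in the HC libraries, so the fitted value depends on low counts. The call was lost without HC replicate 1, without HC replicate 2 or with edgeR's quasi-likelihood test. The transmembrane collagens Col17a1 and Col25a1 were lower in SGNs. Col17a1, a collagen of epithelial attachment, stood at 8.63, 13.0 and 14.9 TPM in HCs and at most at 5.28 in SGNs, with a log2 fold change of -3.53 (SE 0.56, adjusted p = 1.92e-05). Col25a1 stood at 3.36, 3.50 and 3.93 TPM in HCs and at 0 to 3.97 in SGNs, where E15.5 replicate 3 lay above the HCs, and was at -3.75 (SE 0.70, adjusted p = 0.000123).

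Col20a1, a FACIT collagen, stood at 16.1, 18.0 and 19.8 TPM in HCs and at 0.194 to 4.98 in SGNs, at -2.56 (SE 0.43, adjusted p = 3.69e-05). Col18a1, the basement membrane collagen that is the source of endostatin, stood at 8.81, 9.51 and 10.2 TPM in HCs and at 0.162 to 3.95 in SGNs, at -2.87 (SE 0.60, adjusted p = 0.000379), and it overlaps Slc19a1 on the opposite strand. Col4a4 was at -3.60 (SE 0.83, adjusted p = 0.00107) and Col1a1 at -4.35 (SE 0.92, adjusted p = 0.000459). Col4a4 stood at 3.94, 2.09 and 3.68 TPM in HCs, and P8 replicate 1 of the SGNs reached 3.90, where the other 14 SGN libraries were at most at 0.723. The calls of Col17a1, Col18a1, Col20a1 and Col25a1 held under every alternative, and Col1a1 was lost with edgeR, with DESeq2 and with a replicate block. Col4a4 was lost with edgeR. With the marker-rich libraries left out 12 collagens were called, where 26.5% of all genes were, with Col1a2, Col9a1, Col10a1, Col11a1 and Col11a2 added as lower in SGNs. Col9a1 passed the filter through HCs alone, the group where it was high, so its call only describes it.

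Against glia, 19 of 39 collagens were called in HCs, 17 lower and 2 higher, where 24.4% of all genes were called (8.18% lower and 16.2% higher). Col3a1 stood at 3.58, 0.159 and 0.0307 TPM in HCs and was at -10.17 (SE 2.14, adjusted p = 0.000664), Col28a1 at -9.13 (SE 1.14, adjusted p = 2.53e-06) and Col15a1 at -8.40 (SE 1.89, adjusted p = 0.00117). Col5a1 was at -8.24 (SE 0.97, adjusted p = 1.23e-06) and Col6a2 at -7.70 (SE 1.76, adjusted p = 0.00134), and the latter was lost without HC replicate 2. Col3a1 was thus almost absent from 2 of the 3 HC libraries. Col17a1 was higher in HCs by 4.96 (SE 1.14, adjusted p = 0.00142), with 0.182, 0.0338 and 0.221 TPM in glia, and was lost without glia replicate 2 or with quality weights. Col20a1 was higher by 2.83 (SE 0.78, adjusted p = 0.00585), a call that was lost in 10 of 14 alternatives, among them the omission of any 1 HC library. Col6a3 was lost without HC replicate 2 or 3, and Col18a1 without glia replicate 2.

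Chains that join in 1 collagen were not present in a fixed ratio of TPM across cell types. Collagen I holds more of the Col1a1 chain than of Col1a2, and the ratio of Col1a1 to Col1a2 was 1.68 to 2.31 in HCs, 0.0505 to 0.287 in glia and 0.0118 to 1.47 in SGNs. HCs thus lay above all other libraries and glia held more of Col1a2 in all 3. Both genes were high in glia in different libraries, Col1a1 in replicate 2 alone and Col1a2 in all.

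Of the head-to-head pairs, the ratio of Col4a1 to Col4a2 varied less across libraries than that of Col4a3 to Col4a4. The ratio of Col4a1 to Col4a2 had a median of 0.753 over the 21 libraries and ran from 0.272 to 4.77, and the extreme of 4.77 came from an E15.5 library with 0.375 TPM of Col4a2. The ratio of Col4a3 to Col4a4, chains that join with Col4a5 in a collagen IV of special basement membranes, was 3.55 to 52.4 in P8 SGNs, 0.190 to 0.600 in HCs and 0.0255 to 0.159 in glia. The ranges of these 3 groups did not overlap. At the other SGN ages the ratio was 0 to 1.42 at E15.5, 0.890 to 12.2 at P1, up to 23.6 at P14 and 0.473 to 1.83 at P30, and at E15.5 and P30 it overlapped the HCs. One P30 library had no count of Col4a4 and gave no ratio. Col4a3 stood at 21.7, 1.46 and 0.276 TPM in P8 SGNs and Col4a4 at 3.90, 0.0279 and 0.0779, so only the marker-rich library held more than 0.1 TPM of Col4a4. Many of these levels rest on few counts, such as 4 and 21 counts of Col4a4 in P8 replicates 2 and 3. The third pair, Col4a5 and Col4a6, was low, and Col4a6 did not exceed 0.873 TPM in any library.

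The collagen IX ratios of HCs lay above those of all SGN libraries, while the collagen II to XI ratio overlapped between the groups. Col9a1 stood at 0.736 to 0.988 times Col9a3 in HCs and at 0 to 0.473 times in SGNs, and Col9a2 at 1.37 to 2.09 times Col9a3 in HCs, 0.0718 to 0.977 times in SGNs and 0.266 and 0.616 times in glia replicates 1 and 2, while glia replicate 3 lay within the HC range. Col9a1 was at 0.00879 to 1.15 times Col9a3 in glia, which also overlapped the HCs. The ratio of Col2a1 to Col11a1 was 0.704 to 0.945 in HCs and 1.04 to 8.21 in glia. In the 5 marker-rich SGN libraries it was 5.60 to 8.41, the highest of each age and above the HCs. In the other 10 SGN libraries it was 0 to 2.68, and E15.5 replicate 1 (0.781) and P8 replicates 2 and 3 (0.818 and 0.908) lay within the HC range.

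The collagen VI chains were low in neurons. Col6a1, Col6a2 and Col6a3 reached 9.27, 3.57 and 11.8 TPM at most in SGNs, each in a marker-rich library, and at most 2.03, 0.291 and 0.706 in HCs. In glia they stood at 3.94 to 11.3, 0.688 to 6.44 and 13.0 to 18.1 TPM. Col6a4 and Col6a5, further chains of the family, were barely counted, with at most 0.415 TPM of Col6a4, in P1 replicate 1, and 0.0107 TPM of Col6a5. In all, 6 collagens were not steady in any of the 7 groups, namely Col4a6, Col6a4, Col6a5, Col8a2, Col13a1 and Col22a1, and of these Col22a1 reached 3.60 TPM in glia replicate 2 and 2.05 in HC replicate 3.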

How the data were processed

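RNA-Seq of 21 libraries, amplified from total RNA of picked or sorted cells without molecular identifiers, was re-analysed from 1 table. Per the labels and the study's methods, the authors mapped reads to mm10 with STAR 2.4.0i and counted them on GENCODE vM15 genes with featureCounts. The deposited values are raw counts per gene with a length. Strand, multimapping and pair settings are not given in the sources used here, and a median of 67.9% of counts from 1 to 20 were even. The raw reads were not used here, and the table held 0 columns of other series.

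CPM was the count over the library total and TPM the count over the deposited length, scaled per library. Depth ran from 10368240 to 37287489 counts (median 20384100). Limits from 3 counts cover counting error only. Genes were matched to symbols and positions of GENCODE M21 on GRCm38 (52403 of 52550).

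Counts were scaled with TMM (edgeR 4.0.16) and fitted with voom, lmFit and eBayes (limma 3.58.1, R 4.3.3), with a mean per group and no other term, two-sided, with Benjamini-Hochberg adjustment over all genes tested. SGN ages were fitted on 15 libraries and 15113 genes, and cell types on 21 libraries and 17531 genes, with more than 1 CPM in all replicates of at least 1 group. Thresholds were an adjusted p of 0.05 and a fold of 2 for ages, and 0.01 and 4 for cell types. Sums, classes, ratios and plots were made with Python 3.11.15, pandas 2.3.3, numpy 2.4.6 and matplotlib 3.10.9. Scripts were tested on simulated data. P-values measure the spread between these libraries, which may be partly technical.

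Same-numbered libraries were checked for shared deviations from their group means. Only P14 and P30 had a correlation over 0.1 for every number (0.393, 0.244 and 0.104), and the replicate block was fitted there too.

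Collagens, marker lists and partner lists were chosen with earlier results of these data known. Named are the 3 steady collagens with the highest mean TPM per group, the 8 single-library ones with the highest CPM, all collagens called or the 5 largest per direction, up to 4 called genes per partner list, gene pairs and steady genes of most SGN ages. Other genes named, among them Col8a1, Col10a1 in cartilage, the collagen VI chains and single markers, were chosen after their values were seen. Alternatives were library-size scaling, edgeR's quasi-likelihood test, DESeq2 1.42.0, quality weights, 2 other filters, the replicate block, fits of the compared libraries only and leaving out each replicate. Leaving out the 5 marker-rich libraries was added after seeing the data. They also had the highest collagen sum of each age, so calls gained in that fit are descriptions only. Single values of some marker genes are not reported here.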

Additional observations from a re-analysis of the deposited data

How the results depend on the processing

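Of 74 collagen calls 40 held under every alternative that gave an adjusted p, and of 1423 log2 fold changes of called collagens 1328 kept their direction and side of the threshold, 95 lost the call and 0 reversed. DESeq2 gave no adjusted p for Col1a2 in any of the 3 comparisons with glia or for Col11a1 from E15.5 to P30, and these are in neither count. From E15.5 to P1 DESeq2 called 1, the fit with a replicate block 2 and the fit without the 5 marker-rich libraries 2, with 0 to 1 when a replicate was left out. From P1 to P8 edgeR called 1, quality weights 7 and the fit without the marker-rich libraries 7, and leaving out a replicate gave 2 to 4. From P8 to P14 quality weights, the replicate block, the fit of the 6 compared libraries alone and the fit without the marker-rich libraries called 1 each. From E15.5 to P30 the fit without the marker-rich libraries called 16, and leaving out a replicate gave 5 to 8. Against HCs quality weights called 13 and the fit without the marker-rich libraries 12. For P8 SGNs against glia edgeR called 4. The cause of these differences was not tested, except that leaving out libraries leaves fewer samples.

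Pairing by replicate number had a basis in the data for P14 and P30 alone, and the replicate block changed no call there (0 collagens). The replicate 1 libraries, which are marker-rich at these ages, also had correlations of 0.371 for P1 and P8 and 0.337 for P8 and P14. The other numbers gave 0.0663 and 0.163 for P1 and P8, and 0.145 and 0.0284 for P8 and P14. With E15.5, HCs or glia no correlation exceeded 0.1. The block gave 4 collagens from P1 to P8, 8 from E15.5 to P30, 7 against HCs, where Col1a1 was lost and Col14a1 gained, 20 in SGNs against glia, where Col1a1 was lost, 15 at P8 and 18 in HCs against glia, where Col20a1 was lost.

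Of the 99 single-library cases 61 remained at a fold of 8 in place of 4. Cases not detected rose from 50 to 95 with TPM over 1 and to 104 with CPM over 5. HC collagens summed to 27.7% of glia by TPM, 10.6% by CPM, 31.0% without mitochondrial genes, and 24.4% to 29.8% with a glial or HC replicate left out. Scaling by library size alone moved the median log2 fold change of all genes to -0.48 from E15.5 to P30, to -0.53 against HCs and to 0.64 for HCs against glia. Depth limits the genes with few counts, such as Col4a4, Col6a5 and Col19a1 at E15.5.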

Other observations

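Further values of the collagen partners Tll1, P4ha3 and Agrn are given here. Tll1, a tolloid protease that cuts procollagens, stood at 45.4, 50.2 and 46.1 TPM in HCs and at no more than 2.96 in SGNs and 0.138 in glia. Its log2 fold change in SGNs against HCs was -6.18 (limma-voom, adjusted p = 1.75e-11). P4ha3, a prolyl hydroxylase subunit, stood at 66.9, 47.2 and 76.6 TPM in P1 SGNs, at 34.4 to 39.1 in HCs and at 0.248 to 5.12 in glia. In SGNs it rose by 1.66 on the log2 scale from E15.5 to P1 (adjusted p = 0.0072) and fell by 1.37 from P1 to P8 (adjusted p = 0.00678). The mean of the 5 SGN ages against HCs was not called for P4ha3, at 0.38 (adjusted p = 0.354). Against glia it was higher, by 3.42 (adjusted p = 0.000854). Agrn, which encodes the basement membrane proteoglycan agrin, stood at 99.6, 43.9 and 136 TPM in E15.5 SGNs and at 9.97, 9.72 and 3.16 at P30, and fell by 3.42 (adjusted p = 6.88e-08). In SGNs against HCs Agrn was higher, by 3.52 (adjusted p = 4.33e-06).

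By structural class, the transmembrane collagens summed to 40.8, 47.7 and 49.0 TPM in glia, 16.3, 20.6 and 23.3 in HCs, and 0.223 to 17.7 in SGNs. The type IV chains summed to 115, 162 and 120 TPM in glia, 10.8, 6.81 and 11.4 in HCs, and 0.663 to 76.8 in SGNs, with P1 replicate 1 and P8 replicate 1 highest among the neurons at 76.8 and 72.8. Collagen reads made up 0.00475% to 0.738% of all counts in SGN libraries, 0.0723% to 0.0843% in HCs and 0.547% to 0.859% in glia. These sums are descriptions without a test.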
